A study of Rattus norvegicus with 16 samples.

Results

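The 2 genes described here belong to the metallothioneins, and they were taken by identifier from the 32552 genes counted in every library. One, ENSRNOG00000043098, lies on chromosome 19 and was listed as the rat metallothionein 2 gene, and the other, ENSRNOG00000038047, lies on chromosome 17 and was listed as the metallothionein 1 gene. Both were chosen because their counts differed between days, so their day values are given as a description with no test. They are called the chromosome 19 gene and the chromosome 17 gene below.

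Metallothioneins are small, cysteine-rich proteins that hold zinc and copper ions and react with oxidants. Their genes are switched on by zinc through the transcription factor MTF1, which binds short metal response elements near the start site, and also by glucocorticoids and inflammatory cytokines. Metallothionein 1 and 2 are made in many tissues and are known to be induced early in injured tissue, whereas metallothionein 3 is best known from brain and metallothionein 4 from stratified epithelium.

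Bulk RNA was sequenced from the tissue under each implant on the abdominal wall of Sprague Dawley rats, 12 weeks of age and labelled female, in 4 groups of 4 libraries: adhesive day 14, non-adhesive day 14, adhesive day 3 and non-adhesive day 3 post-implantation. The adhesive implant bonded to the abdominal wall, and the non-adhesive implant was the same material swollen in buffer until it no longer bonded and then sutured at its corners, so that the sutures are part of every implant comparison. No library of unoperated tissue was analysed here, and the labels leave unsaid which libraries come from separate rats, so that the spread behind each p-value is one between libraries and may be technical. The extraction text names day 10 for all samples and the design text names day 17 in one place, and the day in each sample's own description was used.

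The RefSeq promoters of the family members Mt2A and Mt1 on chromosome 19 show elements through which metallothionein genes are known to be read. Both sequences are RefSeq entries of the GRCr8 build, run from 250 bases before to 50 bases after the start site, and lie on the minus strand, Mt2A at chr19:10838659-10838958 and Mt1 at chr19:10832926-10833225. Capitals mark the core of the metal response element, TGCACNC or TGCGCNC, on either strand.
Mt2A: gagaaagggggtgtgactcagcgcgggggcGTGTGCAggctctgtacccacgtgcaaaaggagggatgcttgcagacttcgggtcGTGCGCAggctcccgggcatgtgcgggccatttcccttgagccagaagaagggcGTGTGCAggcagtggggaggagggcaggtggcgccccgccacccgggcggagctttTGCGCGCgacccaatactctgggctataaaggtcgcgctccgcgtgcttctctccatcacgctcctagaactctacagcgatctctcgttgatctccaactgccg
Mt1: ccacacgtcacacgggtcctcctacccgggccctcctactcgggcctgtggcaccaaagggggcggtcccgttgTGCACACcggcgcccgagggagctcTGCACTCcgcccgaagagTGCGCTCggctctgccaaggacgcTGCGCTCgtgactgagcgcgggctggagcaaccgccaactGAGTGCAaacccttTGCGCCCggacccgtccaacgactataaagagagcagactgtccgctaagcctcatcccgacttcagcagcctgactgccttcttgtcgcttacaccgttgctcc
The Mt2A promoter holds 4 matches and the Mt1 promoter 6, and the one nearest the start site begins at position -55 from it in both. Of all 33469 promoters of this length, 24.2% hold at least 1 match, 0.439% hold at least 4 and 0.0388% hold at least 6. Each also has 1 match to the antioxidant element TGACNNNGC, held by 12.1% of all promoters on either strand, and 1 TATAAA, held by 14.2%. The full palindromic glucocorticoid element, which 0.0149% of promoters hold, has no match in these windows. Matches of different motifs were counted separately where they overlap, and a match is a description of letters only. The sequence before the chromosome 17 gene was not examined.

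The names of both genes could not be checked against a table, because none of the tables used here pairs these identifiers with symbols. In the coordinates of the deposited files the chromosome 19 gene spans chr19:11307967-11308740 on the minus strand, with 3 exons of 226, 66 and 90 bases and no overlapping gene. Its span of 774 bases compares with 775 bases for RefSeq Mt2A, which lies on chromosome 19 beside Mt1, Mt3 and Mt4. The chromosome 17 gene spans chr17:78793336-78793724 on the plus strand as a single exon of 389 bases. It sits inside an intron of 4019 bases of another gene, ENSRNOG00000015980, which is on the minus strand. RefSeq lists only 1 metallothionein entry on chromosome 17, the pseudogene Mt1-ps3, which also has 389 bases, and it places Mt1 on chromosome 19. The listed name of the chromosome 17 gene thus goes against RefSeq, and whether its counts are reads from its own locus or reads shared with another family member was not tested. The genome build of the file coordinates was not established, so no position was carried between the builds, and only the order of genes is compared below.

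Both genes were abundant on day 3 and low on day 14 at both implants, and no day 14 library reached the level of any day 3 library. Values are in CPM, the counts of a gene per 1000000 counts of its library, with library sizes scaled by the trimmed mean of M values (TMM), which allows for a few genes taking a large share of the reads. The chromosome 19 gene measured 5.41, 22.8, 13.2 and 7.76 CPM in the adhesive day 14 libraries, against 373, 530, 325 and 231 CPM in the adhesive day 3 libraries. At the non-adhesive interface it measured 4.64, 14.5, 6.44 and 6.34 CPM on day 14, against 487, 499, 1045 and 202 CPM on day 3. The counts behind these values were 50 to 301 on day 14, against 4954 to 27021 on day 3. The lowest day 3 library was 8.86 times the highest day 14 library.

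The chromosome 17 gene followed the same course at a lower level. It measured 2.16, 13.1, 5.23 and 2.12 CPM in the adhesive day 14 libraries, against 194, 307, 147 and 120 CPM in the adhesive day 3 libraries. At the non-adhesive interface it measured 2.90, 4.03, 3.68 and 2.18 CPM on day 14, against 306, 225, 547 and 136 CPM on day 3. Its lowest day 3 library was 9.18 times its highest day 14 library. Adhesive day 14 replicate 2 was the highest day 14 library and non-adhesive day 3 replicate 3 the highest day 3 library for both genes.

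**Figure D1:**
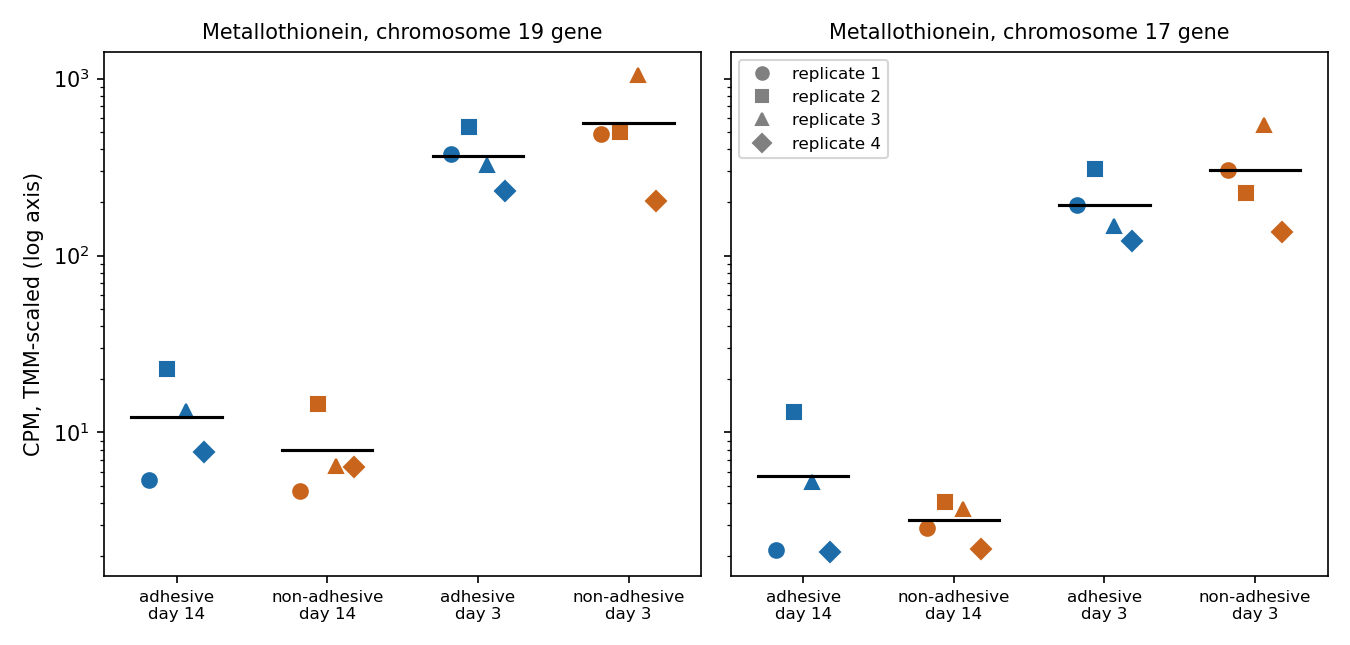
CPM of the chromosome 19 gene (left) and the chromosome 17 gene (right) in each library, on a log axis, with replicates as symbols, adhesive libraries in blue, non-adhesive libraries in orange and group means as black lines. All 8 day 14 libraries lie below all 8 day 3 libraries for both genes, and adhesive and non-adhesive libraries overlap on each day.

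Group means of the chromosome 19 gene were 12.3 ± 7.73 CPM at the adhesive day 14 interface and 365 ± 125 CPM at the adhesive day 3 interface (SD, n = 4 each). The non-adhesive means were 7.99 ± 4.44 CPM on day 14 and 558 ± 352 CPM on day 3. For the chromosome 17 gene the adhesive means were 5.66 ± 5.18 CPM on day 14 and 192 ± 82.4 CPM on day 3. Its non-adhesive means were 3.20 ± 0.826 CPM on day 14 and 304 ± 177 CPM on day 3. By these means the order of the groups was the same for both genes, with non-adhesive day 3 above adhesive day 3, then adhesive day 14, then non-adhesive day 14, and the groups of each day overlap. Without adhesive day 14 replicate 2 the adhesive mean of the chromosome 17 gene was 3.17 CPM, below the non-adhesive day 14 mean. Only the step between the days separates the libraries.

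On the log2 scale the fitted change of the chromosome 19 gene, day 14 over day 3, was -4.89 (SE 0.59) at the adhesive interface and -6.12 (SE 0.63) at the non-adhesive interface. For the chromosome 17 gene it was -5.07 (SE 0.62) at the adhesive and -6.56 (SE 0.66) at the non-adhesive interface. Ordered from the lowest change among 14601 genes fitted, the chromosome 19 gene stood 7th and the chromosome 17 gene 5th at both implants. Across all genes, 8.12% were called between days at the adhesive interface and 9.07% at the non-adhesive interface, by edgeR's quasi-likelihood test with thresholds of 0.05 for the adjusted p and 1 for the size of the log2 fold change. A share of 3.37% had all 8 day 14 libraries below all 8 day 3 libraries, as both members did, and nothing is read from these shares because the day values chose the members. Without adhesive day 14 replicate 2, the adhesive change of the chromosome 17 gene was -5.91.

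Every day 14 library was shallower than every day 3 library, with totals of 13852126 to 16801635 counts, against 18616084 to 24858976 counts on day 3, so day and any batch that followed the day cannot be told apart. The summed CPM of 5 skeletal muscle fibre markers, of 20 listed, was 17247 to 27922 in adhesive day 14 and 10649 to 27285 in non-adhesive day 14 libraries. On day 3 it was 4794 to 12917 in adhesive and 4021 to 10500 in non-adhesive libraries. The part of this difference in tissue in the metallothionein values was not tested, and in bulk tissue fewer cells of a type and less RNA per cell cannot be told apart. The 4 leukocyte markers with an identifier, of 14 listed, summed to 98.3 to 243 CPM in adhesive day 14 libraries, against 176 to 376 CPM in adhesive day 3 libraries. At the non-adhesive interface they summed to 49.2 to 331 CPM on day 14, against 77.9 to 258 CPM on day 3. In each of these lists none of the markers with an identifier was at 0 in all 16 libraries.

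Per length, the chromosome 19 gene was among the most abundant of all genes on day 3. Its mean of 955 CPM per kilobase of exon at the adhesive day 3 interface ranked 57th of 20789 genes with a count above 0, and its mean of 1461 CPM per kilobase at the non-adhesive day 3 interface ranked 31st of 21043. On day 14 its means were 32.2 CPM per kilobase at the adhesive and 20.9 CPM per kilobase at the non-adhesive interface, ranking 2338th of 19829 and 3356th of 20429. The chromosome 17 gene ranked 4433rd at the adhesive and 6498th at the non-adhesive interface on day 14, against 139th at the adhesive and 86th at the non-adhesive interface on day 3. Together both genes took at most 0.00329% of a day 14 library and at most 0.197% of a day 3 library.

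The counts of both genes kept a similar ratio. The chromosome 17 gene held 21.4 to 36.5% of the counts of both in adhesive day 14 libraries, against 31.1 to 36.6% in adhesive day 3 libraries. At the non-adhesive interface its share was 21.7 to 38.5% on day 14, against 31.1 to 40.2% on day 3. Day 14 shares rest on 70 to 474 counts a library, and the widest 95% Wilson interval ran between 19.3 and 40.1% in adhesive day 14 replicate 1. Day 3 shares rest on 8291 to 41177 counts, where non-adhesive day 3 replicate 4 had 40.2% (interval 39.2 to 41.3%) and replicate 2 of that group had 31.1% (interval 30.4 to 31.9%). In the adhesive day 3 group, replicate 2 had 36.6% (interval 36.0 to 37.3%) and replicate 3 had 31.1% (interval 30.3 to 32.0%). These intervals cover counting error only, and on day 3 the shares differed between libraries of the same group by more than that error, at both implants. Centred on its own mean, the log2 CPM of the chromosome 17 gene differed from that of the chromosome 19 gene by a root mean square of 0.38 over the 16 libraries, beside variation of 3.03 and 2.85 about the genes' own means.

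**Figure D2:**
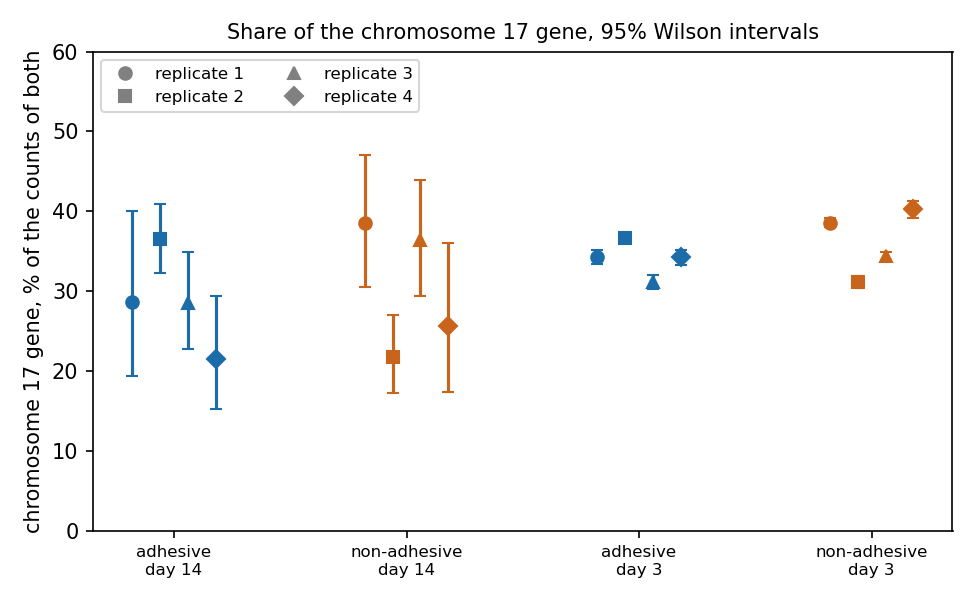
Share of the chromosome 17 gene in the summed counts of both genes, in percent, for each library by group, with 95% Wilson intervals as bars. The shares lie between 21.4 and 40.2% in all 16 libraries, with wider intervals on day 14.

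Because reads may be divided between the genes, their counts were also summed. ENSRNOG00000025764, a neighbour of the chromosome 19 gene described below, is not in this sum. Reads shared with that neighbour are not covered. The sum was 17.9 ± 12.9 CPM at the adhesive day 14 interface and 557 ± 207 CPM at the adhesive day 3 interface (SD, n = 4 each). The non-adhesive sum was 11.2 ± 5.04 CPM on day 14 and 862 ± 526 CPM on day 3. The sum has the same order of groups as each gene. How reads that map to several places were counted is not given in the sources used here.

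The comparison of implants asks whether the bonded interface changed the metallothionein level within a day, which is another contrast than the day difference that chose the genes. The genes were chosen with earlier results of these data known, so its p-values may not be free of that choice. On day 14 both genes had a positive log2 fold change, adhesive over non-adhesive, of 0.63 (SE 0.50) for the chromosome 19 gene and 0.83 (SE 0.58) for the chromosome 17 gene. Neither passed edgeR's quasi-likelihood test with Benjamini-Hochberg adjustment over 13557 genes, with an adjusted p of 0.60 for the chromosome 19 gene and 0.55 for the chromosome 17 gene. Across all genes 0.266% were called on that day. The adhesive and non-adhesive libraries overlap for both genes, where 8.64% of all genes have groups that do not overlap. For the chromosome 19 gene only adhesive day 14 replicate 2 stands above all 4 non-adhesive libraries. For the chromosome 17 gene adhesive replicates 2 and 3 do, with 13.1 and 5.23 CPM against at most 4.03 CPM. Without adhesive day 14 replicate 2 the log2 fold change was 0.14 for the chromosome 19 gene and -0.01 for the chromosome 17 gene. An exact permutation test of log2 CPM, two-sided over 70 assignments with a smallest possible p of 0.0286, gave p = 0.343 for the chromosome 19 gene and p = 0.629 for the chromosome 17 gene (0.610 and 0.629 after adjustment over the 4 tests of 2 genes on 2 days).

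On day 3 both genes had a negative log2 fold change, adhesive over non-adhesive, of -0.62 (SE 0.46) for the chromosome 19 gene and -0.67 (SE 0.44) for the chromosome 17 gene. By the same edgeR test the adjusted p was 0.81 for the chromosome 19 gene and 0.79 for the chromosome 17 gene over 14223 genes, of which 0.0% were called. At an unadjusted p under 0.05 there were 1022 genes, and DESeq2 called 73, neither metallothionein among them. The groups overlap for both genes, where 4.07% of all genes have groups that do not overlap. Without non-adhesive day 3 replicate 3 the log2 fold change was -0.12 for the chromosome 19 gene and -0.22 for the chromosome 17 gene. The exact permutation test, two-sided, gave p = 0.457 for the chromosome 19 gene and p = 0.314 for the chromosome 17 gene, both 0.610 after adjustment over the 4 tests.

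The implant difference had opposite signs on the days, and the difference between the days was itself tested. Day 14 minus day 3, the log2 implant effect differed by 1.24 (SE 0.72) for the chromosome 19 gene and 1.49 (SE 0.76) for the chromosome 17 gene. In edgeR's fit of all 16 libraries the unadjusted p was 0.11 for the chromosome 19 gene and 0.070 for the chromosome 17 gene, and the adjusted p was 1.0 for both. In this fit 0.00685% of 14601 genes were called, 692 reached an unadjusted p under 0.05 and DESeq2 called 25. The DESeq2 unadjusted p was 0.082 for the chromosome 19 gene and 0.049 for the chromosome 17 gene, with adjusted p of 0.95 and 0.85. Neither gene passed after adjustment over all genes. With 4 libraries a group this does not show that the implant effect was the same on both days.

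**Figure D3:**
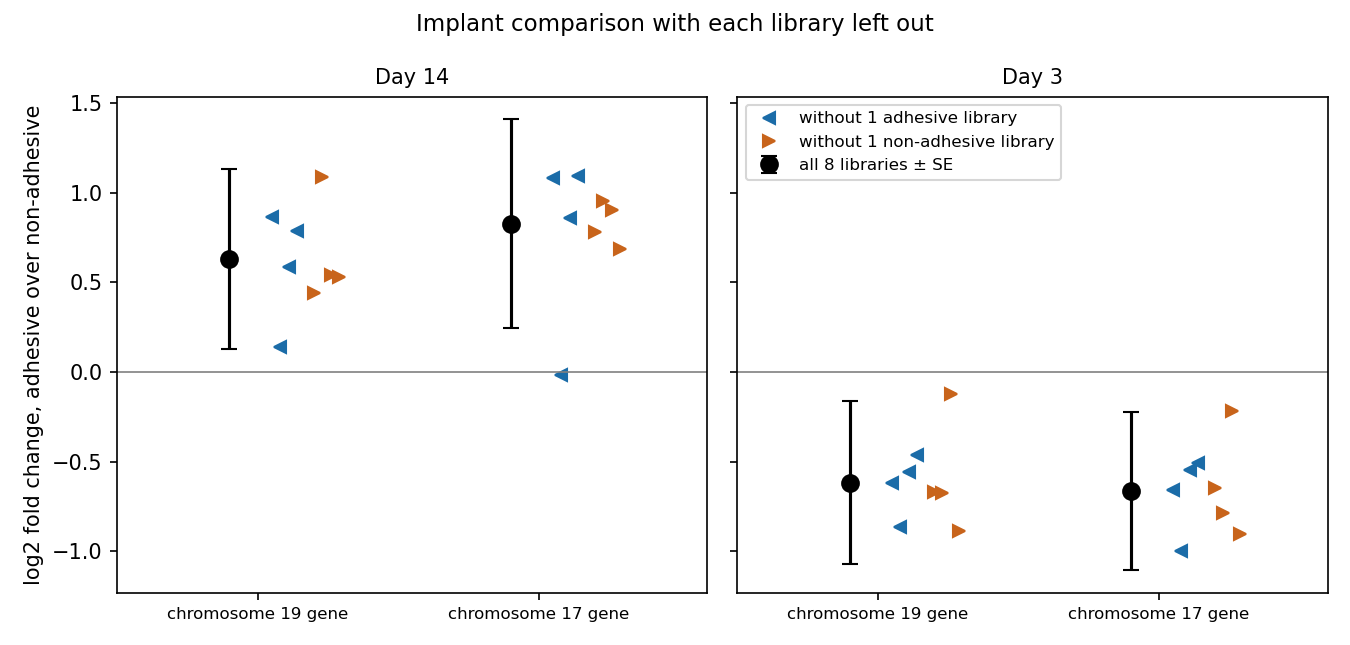
Log2 fold change, adhesive over non-adhesive, of both genes on day 14 (left) and day 3 (right), with all 8 libraries of the day as black points with SE bars and with each library left out as triangles. On day 14 the chromosome 17 gene moves to -0.01 without 1 adhesive library, and on day 3 both genes move towards 0 without 1 non-adhesive library.

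Cell type markers were read beside these values. Of 13 fibroblast markers listed, 10 had an identifier, and all 10 had a negative log2 fold change, adhesive over non-adhesive, on both days. With edgeR 1 of them passed on day 14, when 0.273% of all genes did, and 0 passed on day 3, while DESeq2 passed 3 on each day. Over all genes, DESeq2 passed 461 higher and 519 lower of 13655 on day 14 at an adjusted p of at most 0.05. On day 3 it passed 43 higher and 68 lower of 14327. On day 14 the sign of the fibroblast markers was opposite to that of the metallothionein genes, and on day 3 it was the same. All 5 muscle markers had a positive log2 fold change on day 14 and all 4 leukocyte markers had one on day 3, and none of these passed edgeR, while DESeq2 passed 3 muscle markers on day 14. The fibroblast summed CPM was 2152 to 12296 in adhesive day 14 libraries, against 2874 to 19317 in non-adhesive day 14 libraries. On day 3 it was 3392 to 10341 in adhesive libraries, against 5519 to 14977 in non-adhesive libraries. Adhesive day 14 replicate 2, the library with the highest metallothionein level of its day, also had the highest fibroblast sum of its group. On day 3 the highest fibroblast sum of each group was in replicate 4, the library with its lowest metallothionein levels. This sum was 10341 CPM in the adhesive and 14977 CPM in the non-adhesive library. Non-adhesive day 3 replicate 3, the library with the highest metallothionein levels of that day, had a close fibroblast sum of 14585 CPM. Non-adhesive day 14 replicate 4 had the lowest fibroblast sum of its group, 2874 CPM where the other 3 had at least 17057 CPM, and without it 1151 genes were called between implants on day 14, against 36 with it. The metallothionein genes were not called without it either. The part of fibroblast RNA in the metallothionein values was not tested.

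Among genes counted near the chromosome 19 gene, 1 followed it closely. In RefSeq, Mt1, Mt2A, Mt3 and Mt4 start at 10831959, 10837934, 10854676 and 10869735 on chromosome 19. ENSRNOG00000025764, the chromosome 19 gene, ENSRNOG00000018958 and ENSRNOG00000019004 start at 11302125, 11307967, 11324698 and 11339767 in the coordinates of the deposited files. ENSRNOG00000019004 spans 2097 bases, as does RefSeq Mt4. By this order ENSRNOG00000025764 stands where RefSeq has Mt1 and ENSRNOG00000018958 where it has Mt3, and neither name could be checked. ENSRNOG00000025764, at chr19:11302125-11302938, was picked by its position after the values were seen, and its log2 CPM differed from that of the chromosome 19 gene by a root mean square of 0.33, the smallest of all genes with a mean of at least 1 CPM. It measured 1.41, 13.3, 5.15 and 2.74 CPM in adhesive day 14 libraries, against 123, 187, 87.3 and 70.7 CPM in adhesive day 3 libraries. In non-adhesive libraries it measured 2.32, 8.05, 2.46 and 2.60 CPM on day 14, against 163, 158, 308 and 81.7 CPM on day 3. Its log2 change, day 14 over day 3, was -4.35 at the adhesive and -5.52 at the non-adhesive interface. A neighbour further along, ENSRNOG00000018958, had the opposite course at a low level, with 1.97 to 9.24 CPM in adhesive day 14 libraries, against 0.324 to 0.766 CPM in adhesive day 3 libraries. Its log2 change was 3.13 at the adhesive interface (edgeR adjusted p = 0.0049) and 1.60 at the non-adhesive interface (edgeR adjusted p = 0.055). The gene whose intron holds the chromosome 17 gene measured 7.57 to 12.2 CPM in adhesive day 14 and 5.71 to 19.2 CPM in non-adhesive day 14 libraries, against 8.71 to 20.8 CPM in adhesive day 3 and 10.1 to 15.9 CPM in non-adhesive day 3 libraries. Its groups overlap, so it did not follow the metallothionein counts.

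Of 1887 genes with a symbol, the 5 with the most similar profile over the 16 libraries were the same for both genes, and all were further away than the chromosome 17 gene was from the chromosome 19 gene. For the chromosome 19 gene these were Prg4, which encodes the joint lubricant lubricin, at a root mean square difference of 1.60, the monocyte-attracting chemokine Ccl7 at 1.61, the uridine kinase Uck2 at 1.68, the BMP antagonist Chrd at 1.73 and Tmem158 at 1.81. With or without a symbol, 13151 genes had a mean of at least 1 CPM. Of these, ENSRNOG00000025764, described above, and ENSRNOG00000024630 were among those nearer than the 5 named genes. Only the 3 nearest genes of each member were listed, so further genes without a symbol may also be nearer. For ENSRNOG00000024630 the root mean square difference was 1.03 from the chromosome 19 gene and 1.13 from the chromosome 17 gene. Prg4 averaged 34.8 ± 4.91 CPM in adhesive day 14 libraries and 262 ± 74.1 CPM in adhesive day 3 libraries (SD, n = 4 each). Ccl7 averaged 23.2 ± 20.8 CPM in adhesive day 14 libraries and 166 ± 76.4 CPM in adhesive day 3 libraries. All 16 points share the step between the days, and a likeness of profile is a description only.

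Of 25 genes listed that sense or move zinc, 4 could be matched to an identifier and tested, and with edgeR 1 was lower on day 14 at each implant, beside 7.46% of all genes lower at the adhesive and 8.87% at the non-adhesive interface at an adjusted p of at most 0.05. Slc30a1, the zinc exporter that MTF1 also controls, averaged 10.8 CPM in adhesive day 14 libraries and 23.5 CPM in adhesive day 3 libraries, a log2 change of -1.11 (SE 0.25, adjusted p = 0.012). At the non-adhesive interface its log2 change was -0.69 (SE 0.25, adjusted p = 0.066). Slc30a4, which moves zinc into vesicles, fell by 0.67 on the log2 scale at the non-adhesive interface (SE 0.18, adjusted p = 0.024) and had -0.10 at the adhesive interface. Slc39a7, which releases zinc from the endoplasmic reticulum, and the transporter Slc30a9 did not pass at either implant with edgeR. DESeq2 passed 1 gene of the list at the adhesive and 2 at the non-adhesive interface. Of all 14098 genes, DESeq2 passed 1646 higher and 1638 lower at the adhesive interface at an adjusted p of at most 0.05. At the non-adhesive interface it passed 1810 higher and 1736 lower. Median log2 changes of the list were -0.19 at the adhesive and -0.39 at the non-adhesive interface, beside -0.01 and 0.04 over all genes.

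Of 21 copper and iron genes listed, 3 were tested and 1 rose on day 14 at each implant, beside 7.43% of all genes higher at the adhesive and 8.67% at the non-adhesive interface. That gene was Tfrc, the transferrin receptor, with a log2 change of 1.44 at the adhesive (adjusted p = 0.011) and 1.09 at the non-adhesive interface (adjusted p = 0.030) by edgeR. DESeq2 passed 1 copper and iron gene at the adhesive and 2 at the non-adhesive interface, beside the DESeq2 counts over all genes given above. Of 25 oxidant defence genes listed, 7 were tested and none passed between days at either implant in edgeR. At an unadjusted p under 0.05 with edgeR there were 2 at the adhesive and 0 at the non-adhesive interface. Of all 14601 genes, 4748 were under it at the adhesive and 4809 at the non-adhesive interface. DESeq2 passed 2 oxidant defence genes at the adhesive and 0 at the non-adhesive interface. The superoxide dismutase Sod1 had log2 changes of -0.23 at the adhesive and -0.48 at the non-adhesive interface, and Nfe2l2, the regulator of the antioxidant response, had -0.42 at the adhesive and -0.32 at the non-adhesive interface.

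Of 27 acute inflammation genes listed, 12 were tested between days, of which 5 were lower on day 14 at the adhesive and 2 at the non-adhesive interface by edgeR. Of all genes, 7.46% were lower at the adhesive and 8.87% at the non-adhesive interface. DESeq2 passed 6 at the adhesive and 3 at the non-adhesive interface. Of all 14098 genes, it passed 1646 higher and 1638 lower at the adhesive interface, and 1810 higher and 1736 lower at the non-adhesive interface. The median log2 change of the tested inflammation genes was -1.61 at the adhesive and -1.14 at the non-adhesive interface. Ccl7 fell at both, with log2 changes of -2.83 (adjusted p = 0.019) at the adhesive and -3.01 (adjusted p = 0.013) at the non-adhesive interface by edgeR. The stress transcription factor Atf3 fell at the adhesive interface, with a log2 change of -1.28 (adjusted p = 0.020), and had -0.80 (adjusted p = 0.099) at the non-adhesive interface. Socs3, a feedback inhibitor of cytokine signalling, had log2 changes of -1.34 at the adhesive and -1.33 at the non-adhesive interface with adjusted p = 0.18 at both. Of 14 glucocorticoid response genes listed, 2 were tested. The cell cycle inhibitor Cdkn1a had log2 changes of -1.24 at the adhesive (edgeR adjusted p = 0.0071) and -2.43 at the non-adhesive interface (edgeR adjusted p = 0.00013). The phosphatase Dusp1 had log2 changes of 0.34 at the adhesive and 1.03 at the non-adhesive interface and did not pass with edgeR. DESeq2 passed 1 of these 2 genes at the adhesive and 2 at the non-adhesive interface, so Dusp1 passed there. No gene of these 5 lists passed in the comparison of implants with edgeR on day 14, when 0.273% of all genes reached an adjusted p of at most 0.05, or on day 3, when 0.0% did, while DESeq2 passed 1 zinc gene and 1 glucocorticoid gene on day 14 and 0 on day 3. Over all genes, DESeq2 passed 461 higher and 519 lower of 13655 on day 14. On day 3 it passed 43 higher and 68 lower of 14327. At an unadjusted p under 0.05 with edgeR there were 3 of 26 listed genes on day 14, beside 2149 of all 13557 genes. On day 3 there were 3 of the 28 that were also tested between days, beside 1022 of all 14223 genes. Nothing is read from these list counts.

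**Figure D4:**
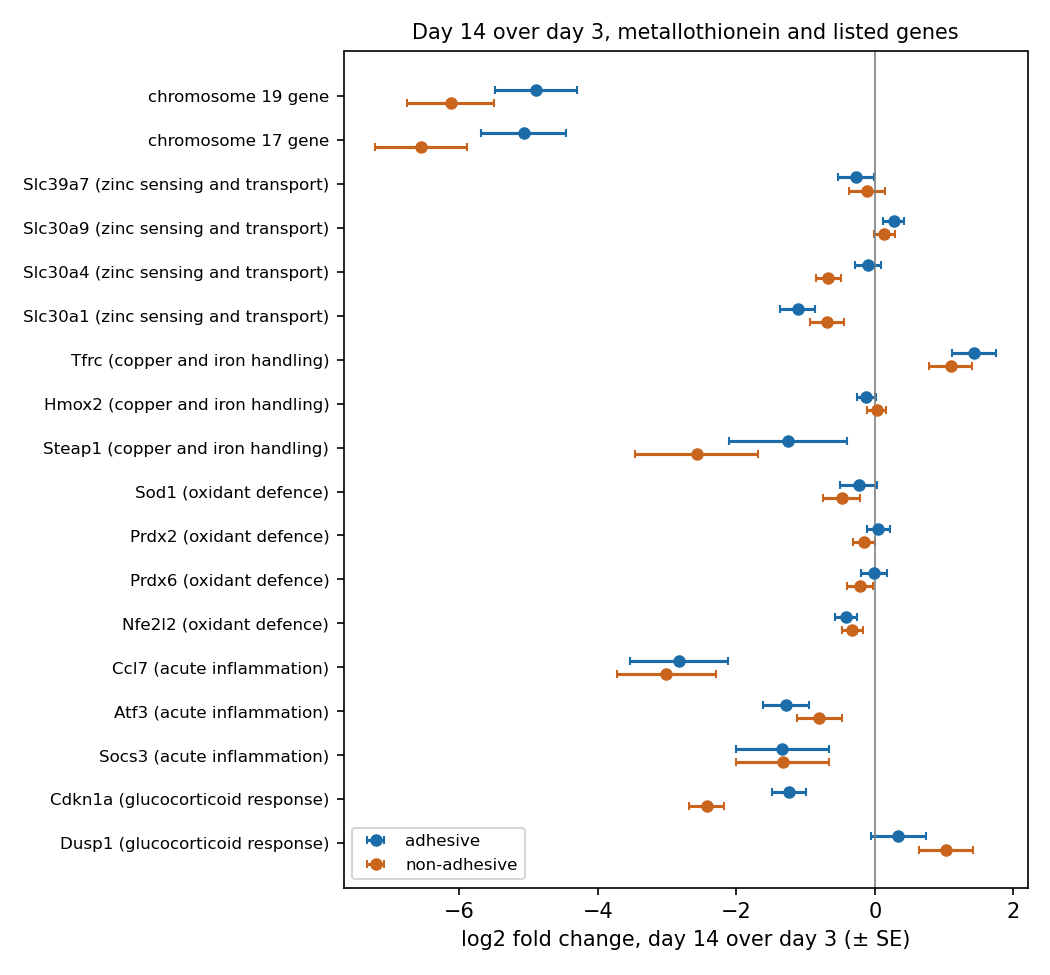
Log2 fold change, day 14 over day 3, with SE bars, of both metallothionein genes and of genes taken from each list by their mean CPM, at the adhesive (blue) and non-adhesive (orange) interface. Both metallothionein genes lie between -4.89 and -6.56, further from 0 than each listed gene shown, of which the lowest is Ccl7 at -3.01.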

How the data were processed

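RNA was enriched with oligo(dT) beads and made into libraries with an NEBNext Ultra kit. The submitters' processing notes name bcl2fastq 2.17, FastQC, Cutadapt, STAR, featureCounts and DESeq2 as the authors' tools. The deposited values are these raw counts per gene, whole numbers for 32552 genes in each of 16 libraries. The strand setting of the counting is not given in the sources used here, and the processing notes and the study's methods name different genome builds. A supplementary gene table served for symbols only (1980 genes), and its fold changes, p-values and normalized values were not used.

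After filterByExpr and TMM scaling, edgeR 4.0.16 in R 4.3.3 was fitted (robust quasi-likelihood), each day alone for implants and all 16 libraries for days and for the difference of implant effects, with Benjamini-Hochberg adjustment over all genes tested. DESeq2 1.42.0 (genes with a mean count over 10) was the main alternative. Log2 CPM used a prior count of 2. Named genes were both members, the 5 genes with a symbol and a mean of at least 1 CPM whose centred log2 CPM differed least from each member, and up to 4 tested genes of each list with the highest mean CPM, of which 1 is not reported here. The members and lists were chosen with earlier results of these data known. Replicate numbers were not used as pairs, since same-numbered libraries did not deviate together at every number. Python 3.11 with pandas 2.3.3, scipy 1.17.1 and matplotlib 3.10.9 served for the rest.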

Additional observations from a re-analysis of the deposited data

How the results depend on the processing

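Of 186 alternative values of the 10 fitted metallothionein results, 184 kept their direction, their side of the threshold where a p was given and, for the days, their size. The day results carry no p, so they have no side of a threshold to keep. Some alternatives could hardly move a value, such as the fit without robust estimation or a day change without a library of the other implant. The count of 184 is therefore no measure of robustness. Leaving out 1 library at a time, the log2 implant effect on day 14 ranged from 0.14 to 1.09 for the chromosome 19 gene and from -0.015 to 1.09 for the chromosome 17 gene, and the lowest values were those without adhesive day 14 replicate 2. The adhesive day change of the chromosome 17 gene ranged from -5.91 to -4.77. With the replicate block, which pairs libraries that share only a number, the chromosome 19 gene had 0.56 on day 14 (SE 0.21, edgeR unadjusted p = 0.035, adjusted p = 0.30), against an SE of 0.50 without it, and genes called between implants numbered 0 on day 14 and 0 on day 3. Same-numbered deviations correlated on day 14 at -0.34, 0.48, 0.25 and 0.17 for numbers 1 to 4, with numbers 2 to 4 best matched to their own number, and on day 3 at -0.31, -0.31, 0.13 and 0.30, with no number best matched to its own. This is a hint from the data and not from the design. Genes called between implants on day 14 numbered 36, against 513 with DESeq2, 216 in a single fit of 16 libraries and 1 to 1151 without a library. On day 3 DESeq2 called 73, against 0. For the difference of implant effects the count was 1, against 25 with DESeq2 and 0 with the replicate block. Between days, leaving out a library gave 462 to 1570 adhesive calls, against 1186, and 744 to 1740 non-adhesive calls, against 1325. With total counts in place of TMM, the mean level of the chromosome 19 gene was 10.3 CPM at the adhesive day 14, 7.38 CPM at the non-adhesive day 14, 427 CPM at the adhesive day 3 and 687 CPM at the non-adhesive day 3 interface, and the order of groups was the same. Depth limits the day 14 values, where the chromosome 17 gene had 20 to 173 counts a library.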
